A study of Homo sapiens with 12 samples.

Results

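The genes described here are 40 direct targets of the p53 family of transcription factors, chosen by name for their known roles in cell-cycle arrest, apoptosis and DNA repair. They were found by symbol among 39099 genes. Of the 40, 38 reached 1 TPM (a transcript's abundance relative to its library's total, corrected for transcript length) in at least 2 libraries and were tested. The other members, SPATA18 (a mitochondrial quality-control gene) and CYFIP2 (a regulator of actin assembly), stayed below 1 TPM in all 12 libraries.

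RNA-seq was done on PANC-1 and AsPC-1, both established cell lines from human pancreatic cancers, each as mock control cells, cells overexpressing TAp63 and cells overexpressing deltaNp63. This gave 6 groups of 2 libraries, called biological replicates in the labels. How the replicates were separated, which vector, promoter or p63 C-terminal form was used, and how long the cells were exposed to it are not given in the sources used here. Each line is a single culture model, so a difference between AsPC-1 and PANC-1 is a difference between 2 cell lines and not between classes of tumour.

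The p53 family consists of p53, p63 and p73, which bind the same response elements in DNA, made of pairs of a decamer. TAp63 carries an N-terminal transactivation domain like that of p53, whereas deltaNp63 lacks it, keeps the DNA-binding domain and is known both as a repressor of p53 targets and as an activator of epithelial genes. The targets halt the cell cycle (CDKN1A, which encodes p21), restrain p53 itself (MDM2, its ubiquitin ligase), trigger apoptosis (BBC3, which encodes PUMA, and PMAIP1, which encodes NOXA), repair DNA (DDB2 and XPC) and adjust metabolism (TIGAR and the sestrins).

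The decamer was looked for in the promoters of the members, because the response of a target depends on the family's DNA element. RefSeq promoter sequences on GRCh38.p14, each with 250 bases before and 50 after a transcript start, were found for 33 of the 40 members. No window was found for PHLDA3, GADD45A, TNFRSF10A, TNFRSF10B, TNFRSF10D, RRM2B and TP53INP1. The search pattern was the p53 decamer, which has 3 purines, a C, 2 bases that are each A or T, a G and 3 pyrimidines, and which reads the same on both strands. It occurred in 8 of the 33 genes (24.2%), against 8.06% of all 27305 genes with a window, and in 8 of the members' 45 windows (17.8%), against 6.63% of 35116 windows. The members were chosen as direct targets of the family, so their selection favoured a higher share than among all genes. A match is a description of the sequence and not evidence of binding, and a window of this size leaves out elements in introns. The 8 matches are shown on the strand of the gene, with the decamer in capitals. They include BAK1 and FDXR, whose levels are given for every library.
PLK2, chr5:58460199-58460228, minus strand: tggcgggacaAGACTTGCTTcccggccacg
BAK1, chr6:33580330-33580359, minus strand: aaagtgggcgGGACATGCTCctgggcctgg
SESN1, chr6:109009018-109009047, minus strand: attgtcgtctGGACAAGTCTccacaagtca
FAS, chr10:88991299-88991328, plus strand: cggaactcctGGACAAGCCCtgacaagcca
DDB2, chr11:47214975-47215004, plus strand: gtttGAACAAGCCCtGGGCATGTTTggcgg
RPS27L, chr15:63157517-63157546, minus strand: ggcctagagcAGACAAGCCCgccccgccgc
AEN, chr15:88621296-88621325, plus strand: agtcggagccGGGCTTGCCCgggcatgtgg
FDXR, chr17:74872986-74873015, minus strand: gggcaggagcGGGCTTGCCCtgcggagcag
AEN, which encodes an apoptosis-enhancing nuclease, and FDXR, which encodes ferredoxin reductase, held the same decamer. DDB2 held 2 decamers 1 base apart. The first decamer base lay at -34 from the start in AEN, -11 in FDXR, -73 in BAK1 and +6 in DDB2.

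The overexpressed gene was examined first. TP63 was between 0.0245 and 1.1 TPM in the 4 mock libraries and between 102 and 1187 TPM in the 8 libraries given a construct. For AsPC-1, the rise on the log2(TPM + 1) scale was 6.09 with TAp63 and 7.23 with deltaNp63 (limma adjusted p 7.47e-06 and 1.42e-06), and, for PANC-1, 8.28 and 9.84 (limma adjusted p 3.83e-07 and 7.2e-08). TP73 was at 0.541 and 0.479 TPM in AsPC-1 mock cells and at 2.71 and 3.11 TPM in PANC-1 mock cells. The epithelial keratin KRT19 was at 1908 TPM or more in AsPC-1 cells and, in PANC-1 cells, at 707 TPM or more, while CDH1 (E-cadherin) reached 3.74 TPM at most in PANC-1 against at least 81.8 TPM in AsPC-1. Of the markers of other cell types, the defining leukocyte gene PTPRC did not exceed 0.0102 TPM and the endothelial gene CDH5 did not exceed 0.0875 TPM, but some others were abundant. The lysosomal gene CD68 was at 90.8 to 126 TPM in AsPC-1 libraries and 255 to 288 TPM for PANC-1, and LYZ (lysozyme) was at 102 to 130 TPM in AsPC-1. Of the mesenchymal markers, VIM (vimentin) was at 2000 TPM or more in every library, LUM (lumican) at 177 to 288 TPM in AsPC-1 and COL1A1 (a collagen) at 80.8 to 111 TPM in PANC-1, while COL1A2 and COL3A1 stayed below 1 TPM. The part of these markers in the results was not tested. Replicate libraries correlated with Pearson's r from 0.987 to 0.994 across the tested genes, and the members' median absolute log2 difference between replicates was lowest for the PANC-1 TAp63 pair (0.088) and highest for the AsPC-1 deltaNp63 pair (0.193). In a bulk library, fewer cells that express a gene and less of its RNA per cell cannot be told apart.

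The levels of the members differed far more between the cell lines than with either construct. Between the mock cells of the lines, 32 of the 38 tested members (84.2%) passed the test, 15 higher in PANC-1 and 17 higher in AsPC-1, against 72.5% of all genes (44.6% higher in PANC-1 and 27.9% higher in AsPC-1). The groups did not overlap for 35 members (92.1%), against 87.6% of all genes. ZMAT3 and TP53INP1 never reached 1 TPM in AsPC-1 and passed the filter only through PANC-1, so a higher level there was built into their selection. Among the 36 members with a mean of at least 1 TPM in each line, 30 passed (83.3%), 13 higher in PANC-1 and 17 higher in AsPC-1, against 70.6% of the 11263 genes of that kind (43.1% and 27.5%). Of these 36, 33 did not overlap (91.7%), against 87.5%. The members' median log2 difference, PANC-1 minus AsPC-1, was -0.12 against 0.24 for all genes. Both medians lie on the log2(TPM + 1) scale, which understates differences of genes near or below 1 TPM. The summed level of the 40 members was 2224 to 2557 TPM in the AsPC-1 libraries and 1358 to 1525 TPM in those of PANC-1. Abundant members weigh most in this sum. TNFRSF10B, CDKN1A and GDF15 had means of 441, 312 and 317 TPM in AsPC-1 mock cells. In PANC-1 mock cells their means were 36.9, 99.3 and 173 TPM, while 15 members were called higher there.

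Among the death receptors, none was higher in PANC-1 and 3 of 4 were higher in AsPC-1. TNFRSF10B, which encodes the TRAIL receptor DR5, was at 429 and 453 TPM in AsPC-1 mock cells and at 36.5 and 37.3 TPM in PANC-1 mock cells, a log2 difference of -3.54 (limma adjusted p 2.13e-10). TNFRSF10A, which encodes DR4, was at 53.1 and 54.3 TPM against 11.0 and 12.6 TPM and differed by -2.10 (limma adjusted p 3.91e-08), and TNFRSF10D, a TRAIL decoy receptor, by -1.97. FAS, the receptor for FAS ligand, differed by -0.44 and did not pass (limma adjusted p 0.0589). TNFRSF10A, TNFRSF10B and FAS overlap other annotated genes, TNFRSF10A with an antisense gene among them, and whether reads were assigned by strand is not given in the sources used here.

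Of the 8 genes of cell-cycle arrest and early growth control, 5 were higher in AsPC-1 and 2 in PANC-1. PLK3, a stress-responsive polo-like kinase, was at 44.5 and 49.3 TPM in AsPC-1 mock cells and at 7.74 and 10.4 TPM for PANC-1, and differed by -2.26 (limma adjusted p 1.33e-07). The antiproliferative BTG2 differed by -2.19 (limma adjusted p 1.47e-06). CDKN1A was at 281 and 344 TPM in AsPC-1 mock cells and at 91.8 and 107 TPM in PANC-1 mock cells, which is a log2 difference of -1.64. The immediate-early regulator IER5 and the kinase PLK2 were the members of this role that were higher in PANC-1, by 1.29 and 0.68.

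Of the 4 feedback genes, 3 were called higher in PANC-1 and 1 higher in AsPC-1. The 3 include ZMAT3, for which a higher level in PANC-1 was built into its selection. MDM2 differed by 1.21, from 8.49 and 6.80 TPM in AsPC-1 mock cells to 17.5 and 20.5 TPM in those of PANC-1. ZMAT3, an RNA-binding regulator of splicing, had a mean of 0.371 ± 0.063 TPM in AsPC-1 against 3.51 ± 0.637 TPM for PANC-1 (SD, n = 2), which is given as a level and not as a test. PPM1D, the phosphatase that reverses p53 activation, was higher in AsPC-1 by a log2 difference of 0.42, written as -0.42 in the direction PANC-1 minus AsPC-1.

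In the group of metabolism, redox and autophagy, 5 of 6 tested members were higher in PANC-1. DRAM1, which promotes autophagy, showed the largest difference towards PANC-1 on the log2(TPM + 1) scale, from a mean of 1.13 ± 0.151 TPM in AsPC-1 to 16.3 ± 3.8 TPM (SD, n = 2; log2 difference 3.00, limma adjusted p 4.98e-08). As a ratio of mean TPM, TP53INP1 differed more. SESN2, a stress sensor that restrains mTORC1, was the exception, at 118 and 145 TPM in AsPC-1, against 19.2 and 25.7 TPM for PANC-1 (log2 difference -2.50, limma adjusted p 5.92e-07). Among genes of mitochondrial apoptosis and survival, 4 of 11 tested were called higher in PANC-1 and 5 in AsPC-1. The 4 include TP53INP1, for which a higher level in PANC-1 was built into its selection. PHLDA3, which blocks AKT at the membrane, and TP53INP1, a regulator of stress-induced death, were higher in PANC-1 by 1.71 and 1.41. The value of TP53INP1 is a description, since it was at 0.117 and 0.0922 TPM in the AsPC-1 mock libraries and at 2.25 and 1.64 TPM for PANC-1. BBC3 was higher in AsPC-1, with a log2 difference of -1.79 (limma adjusted p 1.54e-05). Of the repair genes, the translesion polymerase gene POLH was higher in PANC-1, at 11.0 and 12.9 TPM beside 2.70 and 3.19 TPM (log2 difference 1.71, limma adjusted p 3.64e-05), and XPC, the damage sensor of nucleotide excision repair, was higher in AsPC-1. GDF15, a secreted stress cytokine, was higher in AsPC-1 too, with a log2 difference of -0.87.

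**Figure D1:**
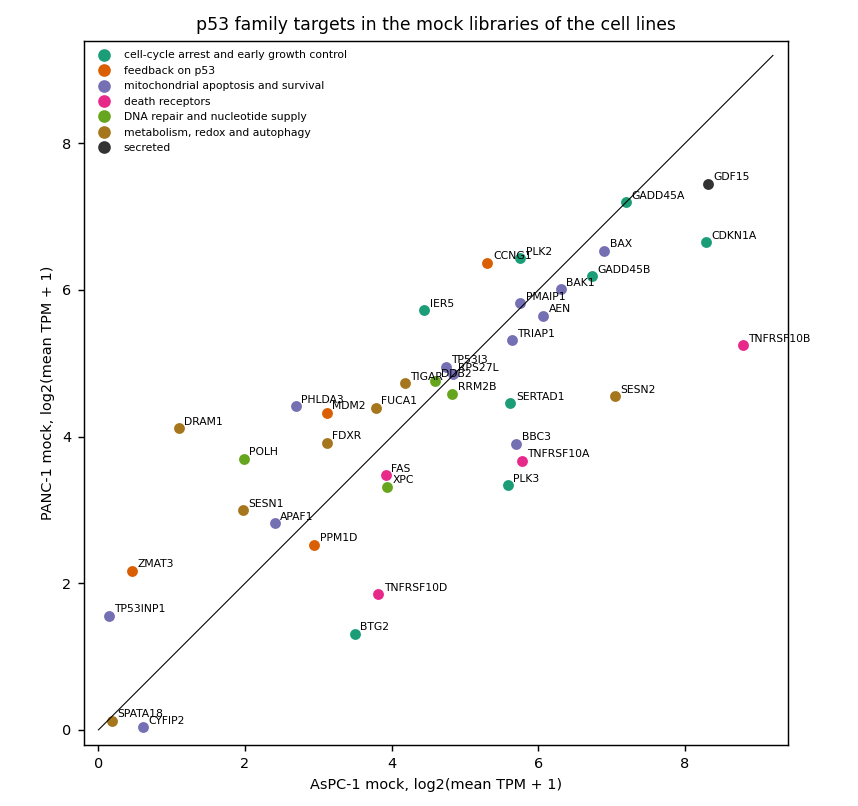
Mean level of each of the 40 members in PANC-1 mock cells against its mean in AsPC-1 mock cells, both as log2(mean TPM + 1) of 2 libraries, coloured by role; the line marks equal levels. TNFRSF10B at 441 against 36.9 TPM lies farthest on the AsPC-1 side, and DRAM1 at 1.13 against 16.3 TPM lies farthest on the PANC-1 side.

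The question the design poses is whether TAp63 or deltaNp63 changes the transcripts of these cells, and for the p53 family targets the number of changes was near the share of all genes. In AsPC-1, 2 members fell with deltaNp63, PHLDA3 and BAK1 (5.26%, against 7.14% of all genes called), and none rose. With median centring PHLDA3 fell and SERTAD1 and TP53I3 rose, and with quantile normalization no member passed limma's test. In the other comparisons of a construct with mock, and in both comparisons of TAp63 with deltaNp63, no member passed limma's test. The comparisons of a line share their mock libraries and are therefore not independent, so their values are given side by side.

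**Figure D2:**
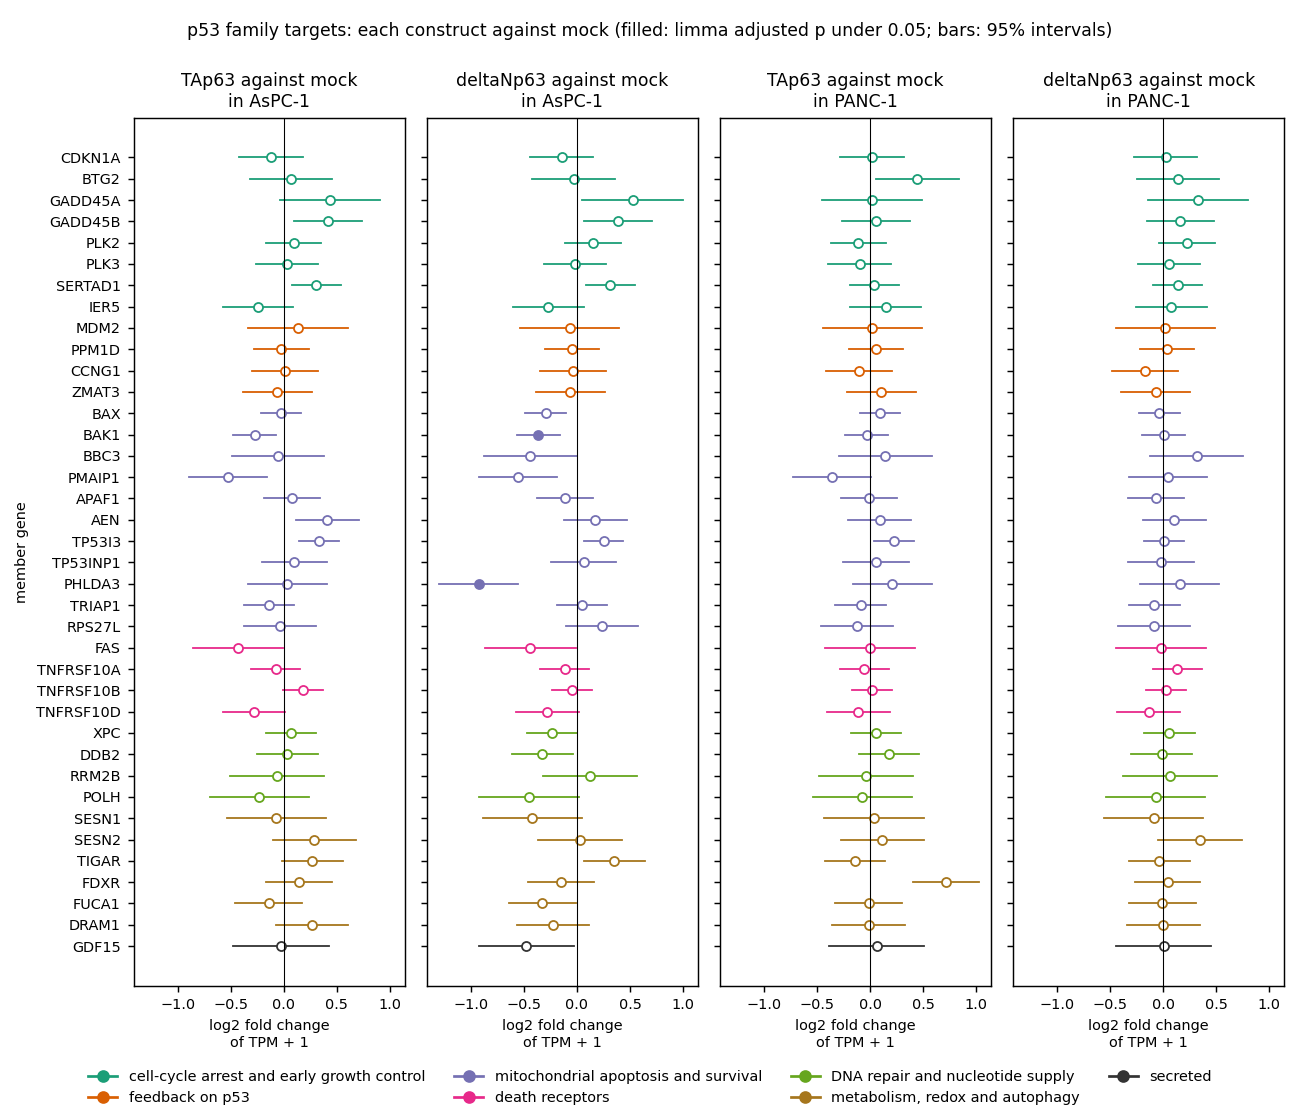
Log2 fold change of TPM + 1 of the 38 tested members for TAp63 and deltaNp63 against mock in each cell line, with 95% confidence intervals from limma; filled points passed the adjusted p threshold of 0.05. PHLDA3 and BAK1 with deltaNp63 in AsPC-1, at -0.93 and -0.37, are the points that passed, and FDXR with TAp63 in PANC-1 is at 0.72.

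With deltaNp63 in AsPC-1, the 2 members that fell make up 5.26% of the 38, against 7.14% of all genes called and 6.51% called lower. An unadjusted p under 0.05 was reached by 14 members (36.8%), against 29.7% of all genes. Groups did not overlap for 23 members (60.5%), against 52.1% of all genes. The median log2 fold change was -0.09 for the members and -0.12 for all genes, and 26 members were below 0. The sign of this median turned with the scaling of the libraries, to 0.12 after centring each library on its median and to 0.04 after quantile normalization. Centring moved the median of all genes from -0.12 to 0.09, and it turned the split of called genes from 94 higher and 961 lower to 249 higher and 170 lower. Quantile normalization gave 51 higher and 148 lower.

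PHLDA3 (ENSG00000174307) is a minus-strand gene (chromosome 1, 201464278 to 201469237, hg38) and encodes a pleckstrin-homology protein that competes with AKT for membrane lipids. Its level was 4.87 and 6.08 TPM in AsPC-1 mock cells, 5.07 and 6.17 TPM with TAp63, and 2.00 and 2.83 TPM with deltaNp63. Both deltaNp63 libraries were below all other AsPC-1 libraries, and the TAp63 and mock libraries overlapped. The fall with deltaNp63 was a log2 fold change of -0.93 (SE 0.166, 95% confidence interval -1.30 to -0.56, limma adjusted p 0.0222). In PANC-1, PHLDA3 was at 17.7 and 22.8 TPM with mock, 24.1 and 22.7 TPM with TAp63 and 21.8 and 23.3 TPM with deltaNp63, so that the groups overlapped. The deltaNp63 effect differed between the lines by 1.08 (SE 0.235), a difference that did not pass (limma adjusted p 0.111). The difference between TAp63 and deltaNp63 in AsPC-1 was 0.96 (95% confidence interval 0.59 to 1.33), ranked 8 of 14767 genes by p, and did not pass after adjustment (limma adjusted p 0.364). The fall passed in 6 of 13 other settings, with limma adjusted p from 0.00314 to 0.363, and it did not pass without either mock library or without deltaNp63 replicate 1, where it was between -1.10 and -0.75 in all 4 fits that left out a library.

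BAK1 (ENSG00000030110), a minus-strand gene (chromosome 6, 33572547 to 33580293, hg38), encodes a pore-forming protein of the outer mitochondrial membrane. It was at 74.5 and 81.9 TPM with mock in AsPC-1, 63.2 and 65.6 TPM with TAp63, and 61.3 and 59.4 TPM with deltaNp63. The mock libraries were above the construct libraries without overlap. Its fall with deltaNp63 amounted to -0.37 (SE 0.0908, limma adjusted p 0.0452). The TAp63 change of -0.27 did not pass (limma adjusted p 0.209). In PANC-1 the 6 libraries lay between 59.2 and 67.7 TPM. BAK1 passed in 4 of 13 other settings, with limma adjusted p from 0.0319 to 0.363; it was -0.16 after median centring (limma adjusted p 0.301), and among fits without a single library it passed only in the 1 without deltaNp63 replicate 2. BAK1 overlaps GGNBP1, and the 2 genes' reads may not be fully separated.

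The other BCL-2 family members and their regulators did not pass with deltaNp63. BAX, the partner of BAK1 in pore formation, was at 126 and 111 TPM with mock, 111 and 121 TPM with TAp63 and 95.4 and 96.5 TPM with deltaNp63 in AsPC-1. Its deltaNp63 change was -0.30 (limma adjusted p 0.0604), with no overlap between deltaNp63 and mock. PMAIP1 was at 61.02 and 44.9 TPM with mock, 41.2 and 31.4 TPM with TAp63 and 38.4 and 32.3 TPM with deltaNp63. Both constructs thus lay below mock without overlap, by -0.53 and -0.56 (limma adjusted p 0.189 and 0.064). In PANC-1, PMAIP1 was at 53.9 and 57.0 TPM with mock, 45.8 and 40.5 TPM with TAp63 and 55.9 and 58.9 TPM with deltaNp63, which placed the TAp63 libraries below the rest (-0.36, limma adjusted p 1). BBC3 was at 46.6 and 55.2 TPM with mock, 42.2 and 56.4 TPM with TAp63, and 30.1 and 45.8 TPM with deltaNp63 in AsPC-1. With deltaNp63 the difference was -0.44 in AsPC-1 but 0.31 in PANC-1, and neither passed (limma adjusted p 0.166 and 1). In PANC-1, BBC3 was at 14.3 and 13.6 TPM with mock, 16.4 and 14.7 TPM with TAp63 and 16.6 and 18.6 TPM with deltaNp63, a small range beside that in AsPC-1.

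Some members lay above mock with both constructs in AsPC-1, without passing. GADD45A and GADD45B, stress sensors that arrest the cell cycle, were among the largest positive changes in both comparisons. GADD45A was at 121 and 170 TPM with mock, 192 and 195 TPM with TAp63 and 247 and 172 TPM with deltaNp63 (changes of 0.43 and 0.52, limma adjusted p 0.374 and 0.134). GADD45B was at 87.9 and 122 TPM with mock, 133 and 145 TPM with TAp63, and 144 and 128 TPM with deltaNp63 (0.42 and 0.39, limma adjusted p 0.214 and 0.108). For both genes all construct libraries exceeded both mock libraries. These values rested on single libraries: without mock replicate 1 or 2 the TAp63 change was 0.19 or 0.68 for GADD45A and 0.18 or 0.66 for GADD45B, and the deltaNp63 change 0.28 or 0.77 and 0.15 or 0.62. For GADD45A the deltaNp63 change was also 0.26 without deltaNp63 replicate 1 and 0.78 without replicate 2, which passed (limma adjusted p 0.0292). AEN was at 62.4 and 69.9 TPM with mock, 85.0 and 91.2 TPM with TAp63 and 65.1 and 85.3 TPM with deltaNp63, so that only TAp63 was clear of mock (0.41, limma adjusted p 0.2). TIGAR, which lowers glycolytic flux, was at 16.6 and 17.7 TPM with mock, 22.8 and 19.1 TPM with TAp63 and 24.7 and 19.9 TPM with deltaNp63. Its changes were 0.27 and 0.35, and the second had a limma adjusted p of 0.105. It was 0.20 without deltaNp63 replicate 1 and 0.50 without replicate 2, where it passed (limma adjusted p 0.0217).

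FAS was at 15.9 and 12.4 TPM with mock, 9.61 and 10.7 TPM with TAp63 and 7.94 and 12.8 TPM with deltaNp63 in AsPC-1 (changes of -0.43 and -0.44, limma adjusted p 0.323 and 0.159). The TAp63 libraries lay below mock and the deltaNp63 libraries spanned it. TNFRSF10D was at 13.4 and 12.8 TPM with mock and at 10.6 TPM in both TAp63 libraries (-0.28, limma adjusted p 0.352), with the deltaNp63 libraries at 11.8 and 9.56 TPM. GDF15 was at 308 and 326 TPM with mock, 281 and 344 TPM with TAp63, and 174 and 297 TPM with deltaNp63. Its deltaNp63 libraries were both below mock, and their own spread was the largest among the groups of this gene (-0.48, limma adjusted p 0.148). The change was -0.09 without deltaNp63 replicate 1 (limma adjusted p 0.777) and -0.86 without replicate 2, where it passed (limma adjusted p 0.00182). In PANC-1 the 6 GDF15 libraries lay between 165 and 183 TPM.

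CDKN1A (ENSG00000124762; chromosome 6, plus strand, 36676460 to 36687337 in hg38), the best-known target of the family, showed no change past the spread of replicates in either line. In AsPC-1 it was at 281 and 344 TPM with mock, 282 and 288 TPM with TAp63 and 300 and 263 TPM with deltaNp63, with the groups overlapping. In PANC-1 it was at 91.8 and 107 TPM with mock, 105 and 95.5 TPM with TAp63 and 90.3 and 112 TPM with deltaNp63, again overlapping. Its log2 changes were -0.12 and -0.15 in AsPC-1, with 95% confidence intervals of -0.42 to 0.18 and -0.44 to 0.15. In PANC-1 they were 0.02 with each construct, with intervals of -0.28 to 0.32 and -0.28 to 0.32. These intervals bound the change; they do not show that it was 0.

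MDM2 as a gene also stayed within the spread of replicates. It was at 8.49 and 6.80 TPM with mock, 7.92 and 8.999 TPM with TAp63 and 5.47 and 9.404 TPM with deltaNp63 in AsPC-1. In PANC-1 it was at 17.5 and 20.5 TPM with mock, 18.1 and 20.4 TPM with TAp63 and 17.5 and 21.01 TPM with deltaNp63, and the groups overlapped in both lines. MDM2 has an upstream promoter and an internal promoter that responds to p53, so its transcripts were also separated by annotated start. The 18 transcripts that start at the internal promoter held 6.09 ± 0.283 TPM with mock in AsPC-1, against 7.14 ± 1.34 TPM for TAp63 and 6.03 ± 2.39 TPM for deltaNp63 (SD, n = 2). In PANC-1 they held 16.5 ± 1.39, 16.7 ± 1.26 and 15.6 ± 2.7 TPM in the same order, differences within 1 SD. The 6 upstream transcripts held 1.55 ± 0.912, 1.23 ± 0.447 and 1.40 ± 0.398 TPM in AsPC-1 in that order. In PANC-1 they were at 1.77 and 2.91 TPM with mock, 2.37 and 2.83 TPM with TAp63 and 3.69 and 3.55 TPM with deltaNp63. The deltaNp63 libraries of PANC-1 were thus above the other 4 without overlap, a difference in a sum of low transcripts that was not tested.

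**Figure D3:**
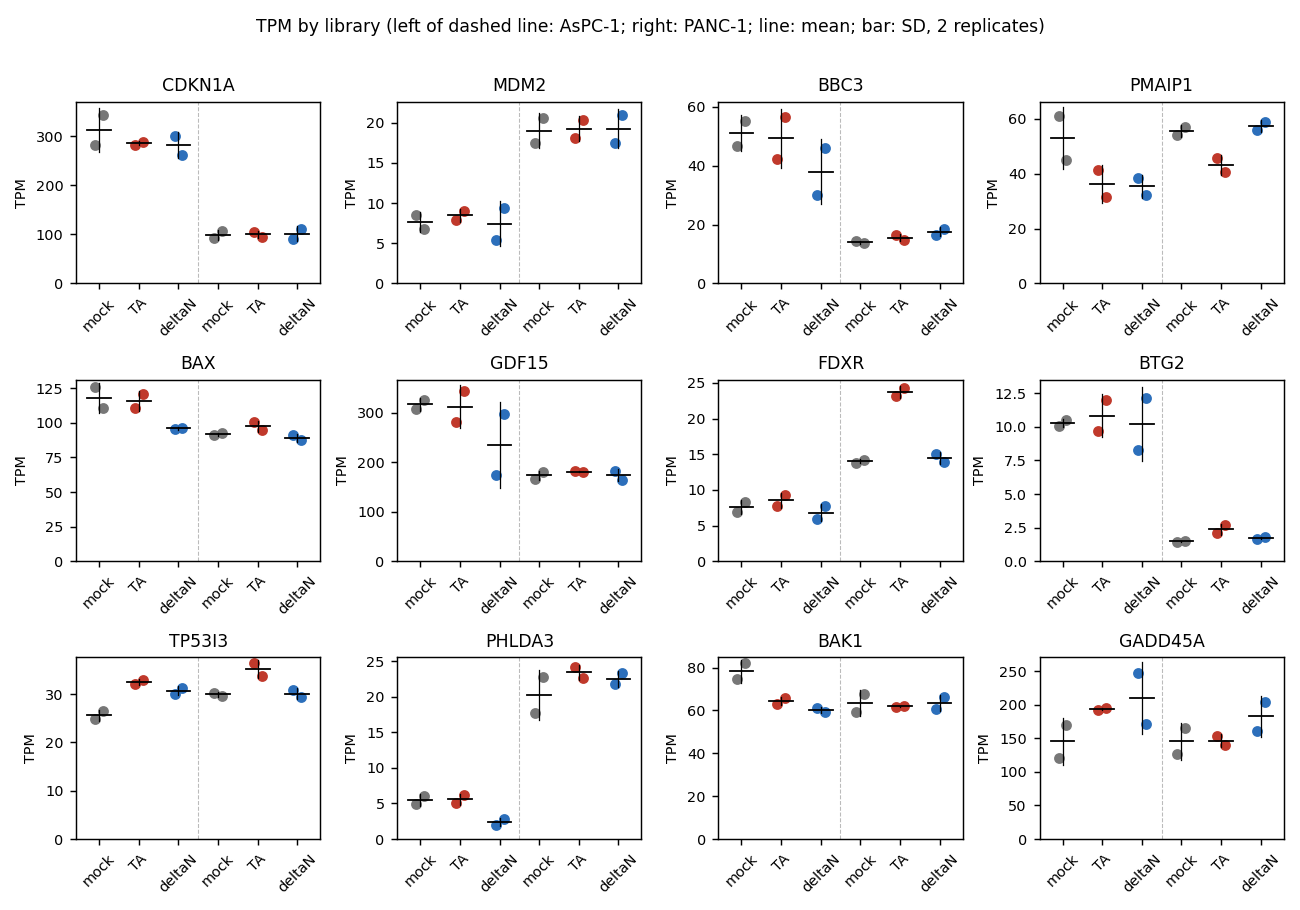
Level of 12 members in every library (TPM, axes from 0), with AsPC-1 left and PANC-1 right of the dashed line and mock in grey, TAp63 (TA) in red and deltaNp63 (deltaN) in blue; horizontal lines are means and vertical bars the SD of 2 libraries. The CDKN1A libraries of PANC-1 sit between 90.3 and 112 TPM with all constructs, PHLDA3 of AsPC-1 is lowest with deltaNp63 at 2.00 and 2.83 TPM, and FDXR of PANC-1 is highest with TAp63 at 23.2 and 24.3 TPM.

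With TAp63 in AsPC-1, no member passed limma's test, against 0.637% of all genes, and 7 members (18.4%) had an unadjusted p under 0.05, against 15.1% of all genes. Groups did not overlap for 18 members (47.4%), against 46.6% of all genes. The members' median was 0.02 and that of all genes was -0.08. With median centring these became 0.15 and 0.06, and again no member passed. The smallest unadjusted p of a member was that of TP53I3, a quinone oxidoreductase gene (0.33, 95% confidence interval 0.14 to 0.52, limma adjusted p 0.126).

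In PANC-1, TAp63 changed no member past the test, against 0.00677% of all genes. An unadjusted p under 0.05 was reached by 3 members (7.89%), against 3.41% of all genes. Groups did not overlap for 10 members (26.3%), against 42.4% of all genes. The members' median was 0.02, against 0.00 for all genes. FDXR (ENSG00000161513; chromosome 17, minus strand, 74862497 to 74873031 in hg38) stood highest. It encodes the mitochondrial reductase that feeds electrons to ferredoxins for steroid, heme and iron-sulfur cluster synthesis. It was at 13.8 and 14.3 TPM with mock, 23.2 and 24.3 TPM with TAp63 and 15.1 and 13.9 TPM with deltaNp63. Both TAp63 libraries were above the other 4 without overlap, by 1.69 times over mock. The change was 0.72 (SE 0.138, 95% confidence interval 0.41 to 1.03), its p ranked 14 of 14767 genes, and it did not pass (limma adjusted p 0.466). It lay between 0.68 and 0.75 in 13 other settings and passed in none of them. Against deltaNp63 the difference was 0.68 (95% confidence interval 0.37 to 0.99, limma adjusted p 0.562). In AsPC-1, FDXR was at 6.96 and 8.33 TPM with mock, 7.78 and 9.29 TPM with TAp63 and 5.94 and 7.69 TPM with deltaNp63, where TAp63 and mock overlapped. The difference between the lines in the TAp63 effect was 0.58, which did not pass (limma adjusted p 0.405).

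Among positive changes, BTG2 and TP53I3 followed FDXR in size with TAp63 in PANC-1, and on the negative side PMAIP1, at -0.36, was larger than TP53I3. BTG2 was at 1.44 and 1.51 TPM with mock, 2.09 and 2.68 TPM with TAp63 and 1.68 and 1.77 TPM with deltaNp63 (0.45 and 0.14, limma adjusted p 1 for both). Its libraries ordered as mock, deltaNp63 and TAp63 without overlap, at levels close to the pseudocount. In AsPC-1, BTG2 was at 10.1 and 10.5 TPM with mock, 9.69 and 11.99 TPM with TAp63 and 8.26 and 12.1 TPM with deltaNp63, and overlapped. RPS27L, a ribosomal protein gene induced by p53, was at 28.9 and 26.8 TPM with mock and 25.4 and 25.5 TPM with TAp63 in PANC-1. TIGAR was at 26.7 and 24.3 TPM with mock and 24.3 and 21.7 TPM with TAp63. Their changes were -0.12 and -0.14, without passing.

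With deltaNp63 in PANC-1, no member passed limma's test, against 0.0406% of all genes. None had an unadjusted p under 0.05, against 2.34% of all genes. Groups did not overlap for 6 members (15.8%), against 27.1% of all genes. The members' changes lay between -0.17 and 0.34, for CCNG1 (cyclin G1) and SESN2. BBC3, GADD45B at 0.16 and BTG2 at 0.14 were the largest positive changes without overlap. GADD45B was at 68.9 and 74.8 TPM with mock and 75.9 and 85.2 TPM with deltaNp63. APAF1, the apoptosome scaffold, was the 1 member below mock without overlap (-0.07), at 6.27 and 5.81 TPM with mock and 5.60 and 5.79 TPM with deltaNp63. All of the 8 arrest and growth genes were above 0, between 0.02 and 0.33, and none of the 8 passed. Some of them, CDKN1A and PLK3 included, overlapped mock. The median change was 0.02 for the members and -0.015 for all genes.

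TAp63 and deltaNp63 were compared directly in each line. The mean rise of TP63 was larger with deltaNp63 than with TAp63 in both lines. The form of p63 and its level therefore cannot be told apart. No member passed limma's test in AsPC-1, against 0.0203% of all genes, or in PANC-1, against 0.0271%. An unadjusted p under 0.05 was reached by 7 members in AsPC-1 (18.4%), against 7.92% of all genes. The same held for 4 in PANC-1 (10.5%), against 2.96%. Groups did not overlap for 14 members in AsPC-1 (36.8%, against 29.5% of all genes) and 15 in PANC-1 (39.5%, against 34%). In AsPC-1, 30 of the 38 members were higher with TAp63, at a median of 0.07, against 0.04 for all genes. After median centring the members' median was -0.01, with 19 above 0. Without AsPC-1 deltaNp63 replicate 2, 3 members passed in AsPC-1, DDB2, GDF15 and PHLDA3, all higher with TAp63. In PANC-1 the extremes were FDXR and PMAIP1, at 0.68 and -0.41.

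The confidence intervals bound each member's change and do not give the size of change that the test could detect. Each gene's spread was estimated once over all 12 libraries, so a gene's interval is equally wide in both lines. The replicates' own spread was not equal. The members' median absolute log2 difference between replicates was 0.193 for AsPC-1 deltaNp63 and 0.088 for PANC-1 TAp63. Pooled intervals may therefore be too narrow for the former group and too wide for the latter. Intervals were counted for members with a mean of at least 1 TPM in the line, 36 in AsPC-1 and 38 in PANC-1. ZMAT3 and TP53INP1 were left out in AsPC-1, where the log2(TPM + 1) scale holds their intervals near 0 whatever their relative change. The 95% interval lay wholly within 1 log2 unit of 0 for 36 members with TAp63 in AsPC-1, for 35 with deltaNp63 in AsPC-1, for 37 with TAp63 in PANC-1 and for 38 with deltaNp63 in PANC-1. The exceptions were PHLDA3 and FDXR. Within 0.5 log2 units lay 20, 16, 29 and 30 intervals in the same order. The median absolute change of the 38 members was 0.13, 0.24, 0.08 and 0.07, against 0.14, 0.20, 0.10 and 0.07 for all genes. Beyond the central 95% of all genes lay AEN, GADD45A and GADD45B above with TAp63 in AsPC-1, GADD45A above and PHLDA3 below with deltaNp63 in AsPC-1, BTG2 and FDXR above with TAp63 in PANC-1, and no member with deltaNp63 in PANC-1.

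**Figure D4:**
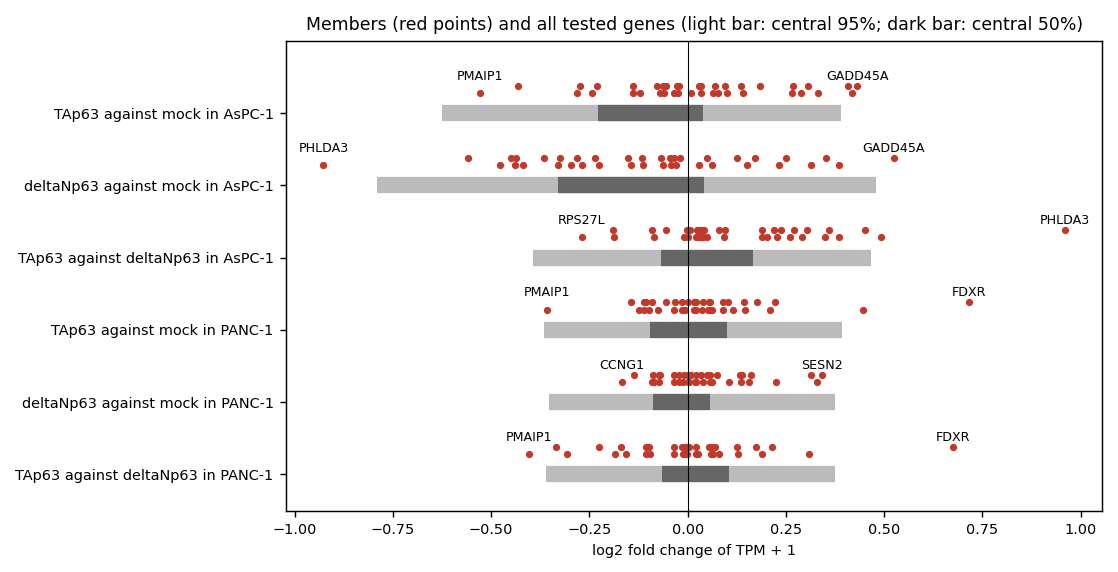
Log2 fold change of TPM + 1 of the 38 tested members (red points, with the lowest and highest named) over the range of all 14767 tested genes in the 6 construct comparisons; the light bar spans the central 95% and the dark bar the central 50% of all genes. Most members lie within the range of all genes, and PHLDA3 at -0.93 and FDXR at 0.72 lie outside its central 95%.

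The difference between cell lines in a construct's effect was tested for each member. No member passed for TAp63, against 0.0745% of all genes, or for deltaNp63, against 0.582%. An unadjusted p under 0.05 was reached by 2 members for TAp63 (5.26%, against 10.4% of all genes) and by 4 for deltaNp63 (10.5%, against 16.5%). The latter were PHLDA3, BBC3, PMAIP1 and BAK1, at 1.08, 0.75, 0.61 and 0.37, each of which was more positive in PANC-1 (limma adjusted p 0.111, 0.248, 0.256 and 0.237). Without AsPC-1 deltaNp63 replicate 2, 6 members passed for deltaNp63, BBC3, DDB2, FAS, FUCA1, GDF15 and PHLDA3.

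Gene sums can hide transcripts that move apart, so 114 transcripts of the 38 members were tested among 47437 transcripts. With deltaNp63 in AsPC-1, 1 member transcript fell (0.285% of all transcripts passed), and for TAp63 against deltaNp63 in PANC-1, 1 was higher (0.0232% of all transcripts). In the other construct comparisons none of the 114 passed limma's test, against 0.0949% of all transcripts for TAp63 and mock in AsPC-1, 0.0126% for TAp63 and deltaNp63 in AsPC-1, and 0.0148% and 0.0211% for TAp63 and deltaNp63 against mock in PANC-1. At an unadjusted p under 0.05 these comparisons had 11, 8, 7 and 6 of the 114 member transcripts in the same order. The shares of all transcripts were 7.91%, 5.57%, 4.95% and 4.32%. With deltaNp63 in AsPC-1, 19 of the 114 had an unadjusted p under 0.05, against 13.6% of all transcripts. For TAp63 against deltaNp63 in PANC-1 there were 10 of the 114, against 4.36%. The transcript that fell was BAX-205 (ENST00000415969), at 5.48 and 2.55 TPM in AsPC-1 mock cells and listed at 0 in the 4 construct libraries of that line (limma adjusted p 0.0434). The transcript that was higher was CDKN1A-207 (ENST00000478800), at 4.04 and 2.28 TPM in the PANC-1 TAp63 libraries and listed at 0 in the other PANC-1 libraries (limma adjusted p 0.0444). A value of 0 for 1 transcript of a well-expressed gene can be a failed estimate, and both calls were lost with median centring.

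TP53I3, a p53-induced gene whose product generates reactive oxygen species, showed a pattern at the transcript level. It lies on chromosome 2, minus strand, from 24077433 to 24085861 in hg38, and overlaps FAM228B. As a gene it was at 24.9 and 26.5 TPM with mock, 32.1 and 32.9 TPM with TAp63 and 30.1 and 31.3 TPM with deltaNp63 in AsPC-1. In PANC-1 it was at 30.3 and 29.6 TPM with mock, 36.4 and 33.8 TPM with TAp63 and 30.9 and 29.4 TPM with deltaNp63. TAp63 libraries were thus above mock in both lines without overlap, by 0.33 and 0.22 (limma adjusted p 0.126 and 1), and deltaNp63 libraries were above mock in AsPC-1 and overlapped it in PANC-1. The difference lay mostly in TP53I3-204 (ENST00000413037), a transcript of 3 exons from 24080746 to 24084311, whereas TP53I3-202 has 6 exons. TP53I3-204 was at 5.48 and 4.92 TPM with mock, 10.7 and 11.0 TPM with TAp63 and 8.05 and 10.6 TPM with deltaNp63 in AsPC-1. In PANC-1 it was at 5.41 and 7.21 TPM with mock, 11.3 and 9.44 TPM with TAp63 and 5.76 and 6.40 TPM with deltaNp63. The changes with TAp63 were 0.94 in AsPC-1 (SE 0.178, limma adjusted p 0.174) and, for PANC-1, 0.64 (limma adjusted p 0.708). Neither passed. TP53I3-202 was at 13.4 and 15.0 TPM with mock and 15.6 and 15.0 TPM with TAp63 in AsPC-1, and at 17.5 and 18.0 TPM with mock and 19.6 and 18.1 TPM with TAp63 in PANC-1. As a share of the gene, TP53I3-204 held 22% and 18.6% with mock and 33.2% and 33.5% with TAp63 in AsPC-1, and 17.9% and 24.4% with mock and 30.9% and 27.9% with TAp63 in PANC-1. With deltaNp63 it held 26.8% and 33.7% in AsPC-1, the second above both TAp63 libraries, and 18.6% and 21.8% in PANC-1. This transcript was singled out after its values were seen.

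**Figure D5:**
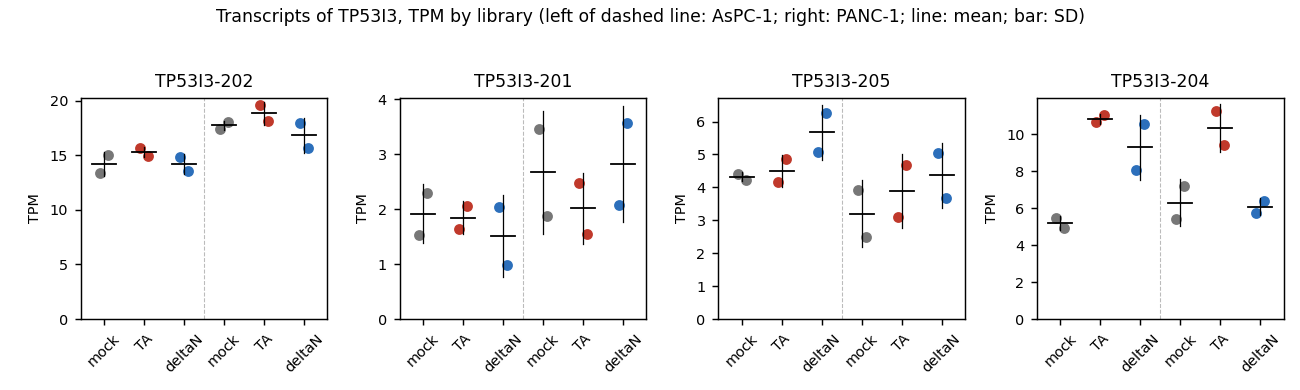
Level of 4 transcripts of TP53I3 in every library (TPM, axes from 0), with AsPC-1 left and PANC-1 right of the dashed line; horizontal lines are means and vertical bars the SD of 2 libraries. TP53I3-204 is highest with TAp63, at 10.7 and 11.0 TPM in AsPC-1 and 11.3 and 9.44 TPM in PANC-1, and deltaNp63 libraries are above mock in AsPC-1 alone.

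The FDXR difference lay mostly in the transcript ENST00000293195, at 12.1 and 10.8 TPM with mock and 18.6 and 19.5 TPM with TAp63 in PANC-1 (0.69, limma adjusted p 0.611). For PMAIP1, the transcript ENST00000269518 was at 21.2 and 14.6 TPM with mock and 11.5 and 6.81 TPM with TAp63 in AsPC-1 (-0.91, limma adjusted p 0.358). In PANC-1 this transcript was at 24.1 and 21.4 TPM with mock and 14.9 and 14.5 TPM with TAp63. The TAp63 libraries were below mock for it in both lines.

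Other genes of the pathway were counted from lists grouped by function, which were chosen with earlier results of these data known. With deltaNp63 in AsPC-1 these counts stand beside 6.51% of all genes called lower and 0.637% called higher. Of 24 members and regulators of the p53 family, TP63 was the 1 that rose in each comparison of a construct with mock, and 3 (12.5%) fell with deltaNp63 in AsPC-1, CHEK2 at -0.95, JMY at -0.50 and ATR at -0.43 (limma adjusted p 0.0335, 0.039 and 0.0478), of which none passed with median centring or quantile normalization. CHEK2 and ATR encode kinases that signal DNA damage to p53, and JMY encodes a p53 cofactor. Of 39 tested further p53 family targets, 1 (2.56%) rose and 5 (12.8%) fell with deltaNp63 in AsPC-1, 1 (2.56%, against 0.637% of all genes called) fell with TAp63 in AsPC-1, and none passed in PANC-1. Among these, PML, a tumour suppressor of nuclear bodies, fell from 37.3 and 44.2 TPM to 16.4 and 20.8 TPM with deltaNp63, and TRIM22, an antiviral ubiquitin ligase, from 3.29 and 4.12 TPM to 0.951 and 1.04 TPM. Both also passed with either scaling. SFN, which encodes 14-3-3 sigma, rose with deltaNp63 in AsPC-1 by 0.51 (limma adjusted p 0.0432), from 390 and 507 TPM to 690 and 584 TPM, and did not pass after quantile normalization. Of 18 tested epithelial p63 targets, SFN and S100A2, a calcium-binding protein of basal epithelium, rose in that comparison (11.1%). S100A2 was at 38.1 and 51.1 TPM with mock and 144 and 66.7 TPM with deltaNp63 (limma adjusted p 0.0468), and did not pass with either scaling. Of 20 cell-cycle genes repressed through p21, 3 (15%) fell with deltaNp63 in AsPC-1, E2F1, MKI67 and CENPF, at -0.75, -0.70 and -0.48, and none passed with either scaling.

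The interferon-stimulated genes, a list also chosen with earlier results of these data known, moved in the same comparisons. Of 11 tested, 10 fell with TAp63 in AsPC-1 (0.637% of all genes called) and 11 with deltaNp63 (6.51% called lower). The medians of these genes were -1.55 and -2.05, and none passed in PANC-1. Their summed level was 2460 and 2465 TPM with mock, 870 and 1070 TPM with TAp63, and 627 and 748 TPM with deltaNp63 in AsPC-1, and between 5864 and 6447 TPM in PANC-1. PML, TRIM22 and TLR3, which are on the list of further p53 family targets, are also known as interferon-induced genes. The part of that response in the changes of p53 family targets was not tested.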

How the data were processed

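A TPM table that the authors deposited covers 153329 Ensembl transcripts in the 12 libraries. Each library sums to 1000000. Per the labels' protocols, a column kit gave the RNA and a stranded mRNA kit the libraries. The aligner or quantifier, genome build and annotation are not given in the sources used here. How deeply each library was sequenced is unknown from TPM, and precision comes from the replicates.

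Transcripts were paired with genes through GENCODE v44 (hg38), which matched 139819 transcripts (91.2%) holding 89.6% to 90.5% of a library's TPM, and their TPM was summed to genes. Columns were matched to samples by title. Values were tested as log2(TPM + 1), a pseudocount of 1, over 14767 genes that reached 1 TPM in 2 or more libraries. For genes near or below 1 TPM this scale gives too small a fold change. One model of 6 group means was fitted with limma 3.58.1 (eBayes with trend; R 4.3.3), with 6 residual degrees of freedom, two-sided tests and Benjamini-Hochberg adjustment over all genes at 0.05. The transcript rows were tested in the same way. Each p-value sets a difference of group means against a spread pooled over the replicates of all 6 groups. It speaks for these libraries only. Tested on simulated data for TAp63 against mock in PANC-1 (14767 genes, 200 changed), the script recovered 78% of changes of 1 log2 unit and 96% of those of 2, with 7 false calls. Smaller changes were not simulated. With Benjamini-Hochberg adjustment, recovery depends on how many genes change, so these shares need not hold for the real comparison. In the real comparison 1 gene was called, and the members' changes lay between -0.36 and 0.72. Promoters come from RefSeq. Tables and figures used pandas 2.3.3 and matplotlib 3.10.9.

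The members and lists were chosen with earlier results of these data known. CDKN1A, MDM2, GDF15, BAX, BBC3, PMAIP1 and TP53I3 were always named, as were members that passed and, in each comparison of a construct with mock, up to 3 members each way with the largest changes without overlap. The 5 largest differences each way were named between the mock cells, and up to 3 genes per other list and comparison. The level of 1 further gene that the rule names is not reported here. The alternatives tried were limma without trend, quantile normalization, median centring, no filter, a mean of at least 5 TPM, a pseudocount of 0.1, smaller sets of libraries, a replicate block and leaving out each library. The labels do not say that a replicate number marks a shared batch.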

Additional observations from a re-analysis of the deposited data

Results flagged for a closer look

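The effect of a construct differed between the cell lines, by limma's test of the difference itself, for interferon-stimulated genes and for TP63, and for no member of the p53 family targets. Of 11 tested interferon-stimulated genes, 5 passed for the TAp63 effect (0.0745% of all genes) and 10 for the deltaNp63 effect (0.582% of all genes). Each of these had a lower change against mock in AsPC-1 than in PANC-1. With quantile normalization 2 passed for the TAp63 effect, IFIT3 and OAS2, and 9 for the deltaNp63 effect. TP63 rose more in PANC-1 than in AsPC-1 with deltaNp63, a difference of 2.61 on the log2(TPM + 1) scale (limma adjusted p 0.01).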

How the results depend on the processing

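The number of members called with deltaNp63 in AsPC-1 depended on the processing. It was 2, and became 1 without a trend (PHLDA3), 0 with quantile normalization, 0 with no filter on low values, 4 with a mean of at least 5 TPM (BAK1, BAX, PHLDA3 and PMAIP1), 0 with only the libraries of AsPC-1 and 0 with only the groups compared. It was 3 with median centring, with SERTAD1 and TP53I3 called higher, and 2 with a pseudocount of 0.1. Leaving out 1 library gave 0 to 9. It was 0 without either mock library or deltaNp63 replicate 1, and 9 without deltaNp63 replicate 2, with GADD45A and TIGAR higher and BAK1, BBC3, DDB2, FAS, FUCA1, GDF15 and PHLDA3 lower. Leaving out 1 library also gave 0 to 6 members for the cell line difference in the deltaNp63 effect and 0 to 3 for TAp63 against deltaNp63 in AsPC-1. The cause was not tested. For the remaining comparisons of constructs and lines, that is TAp63 against mock in either line, deltaNp63 against mock in PANC-1, TAp63 against deltaNp63 in PANC-1 and the line difference in the TAp63 effect, no alternative called a member. Between the mock cells, 27 to 33 members were called, and 30 of the 36 with a mean of at least 1 TPM in each line, a count added after seeing the data.

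All genes called with deltaNp63 in AsPC-1 numbered 1055, 199 with quantile normalization, 419 with median centring, 225 with no filter, 8 with only the libraries of AsPC-1 and 0 with only the groups compared. For TAp63 in AsPC-1 the 94 genes became 83 with no filter, 1 with only the libraries of AsPC-1 and 0 with only the groups compared. With no filter, TAp63 called 49 genes in PANC-1 against 1, deltaNp63 42 against 6, and TAp63 against deltaNp63 18 against 3 in AsPC-1 and 33 against 4 in PANC-1. The 2 member transcripts became 1 with quantile normalization, 0 with median centring, 0 with a mean of at least 5 TPM and 1 with a pseudocount of 0.1.

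With the replicate block, 4 members were called for deltaNp63 in AsPC-1 (BAK1, BBC3, PHLDA3 and PMAIP1), 1 for the line difference in the deltaNp63 effect (PHLDA3) and 0 member transcripts, and no other count of called members changed. Same-numbered deviations correlated between -0.094 and 0.293 over the pairs of groups in a line, so the numbers were not taken as a pairing. Without read depths, no floor can be given for genes listed at or near 0.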
